A study of Mus musculus with 2 samples.

Results

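The 10 genes described here encode C-type lectin receptors of myeloid cells: Clec7a (dectin-1), Clec4n (dectin-2), Clec4e (Mincle), Clec4d (MCL), Clec4b1 (DCAR), Clec5a (MDL-1), Clec4a2 (DCIR1), Clec12a (MICL), Clec4a1 and Clec4a3. They were chosen by name as members of the Clec4 and dectin gene clusters, with Clec5a added, and not by their counts. All 10 were present among the 49585 gene identifiers of the deposited count table, and all 10 had at least 50 reads. RNA was sequenced from CD11b+ cells, a mix of granulocytes, monocytes, macrophages and some dendritic cells, taken with magnetic beads from digested subcutaneous tumours of implanted mouse pancreatic cancer cell lines. Both groups were NRP2f/fCSF1R-iCRE mice on a BL6 background, in which Nrp2 is floxed and the Csf1r promoter of monocytes and macrophages drives an inducible Cre. The test animals received daily tamoxifen from the time tumours were palpable, whereas none is named for the control animals, so effects of drug and deletion cannot be told apart. Tumours were taken after 15 days, and RNA of 3 animals was pooled into 1 library per group, named the control and the knockout library below.

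C-type lectins of this family sit on the cell surface and bind sugars and lipids of microbes and of damaged cells. Activating members signal through the kinase Syk and the adaptor Card9, either with a tyrosine motif of their own, as dectin-1 does, or through the partner chains FcR-gamma (Fcer1g) and DAP12 (Tyrobp). Inhibitory members carry an ITIM, a tyrosine motif that recruits phosphatases such as SHP-1 (Ptpn6). Dectin-1 and Mincle are both known from macrophages of pancreatic tumours. Here 6 members were taken as activating (Clec7a, Clec4n, Clec4e, Clec4d, Clec4b1, Clec5a) and 2 as inhibitory (Clec4a2, Clec12a). Clec4a1 and Clec4a3, relatives of Clec4a2, were put in neither class.

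All 10 genes lie on mouse chromosome 6 (GRCm38). The Clec4 genes form one run, in which Clec4n (chr6:123229843-123247021, plus strand), Clec4d (chr6:123262111-123275265, plus strand) and Clec4e (chr6:123281789-123289870, minus strand) are neighbours. The gap between Clec4n and Clec4d is 15089 bases, and that between Clec4d and Clec4e is 6523 bases. Clec12a (chr6:129342691-129365303) and Clec7a (chr6:129461591-129472779) belong to the dectin cluster, and Clec5a (chr6:40574894-40585821) lies apart. The GENCODE annotation types 9 of them as protein-coding and Clec7a as a polymorphic pseudogene. No exon of a member overlaps an exon of another annotated gene, on either strand.

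RefSeq promoters were matched for 9 of the 10 genes, all but Clec4n, with 11 entries. Of these, 3 from the Clec4 cluster are shown: those of Clec4d and Clec4e, the members with the highest ratios of knockout to control, and of Clec4b1, the member with the lowest. Each sequence is the 250 bases before the RefSeq start (GRCm38.p6), read 5′ to 3′ on the gene's strand, and capitals mark matches on either strand to GAGGAA, the core bound by the myeloid factor PU.1, or to TTGCNNAA, a core bound by C/EBP factors.
Clec4d (chr6:123261857-123262106, plus strand): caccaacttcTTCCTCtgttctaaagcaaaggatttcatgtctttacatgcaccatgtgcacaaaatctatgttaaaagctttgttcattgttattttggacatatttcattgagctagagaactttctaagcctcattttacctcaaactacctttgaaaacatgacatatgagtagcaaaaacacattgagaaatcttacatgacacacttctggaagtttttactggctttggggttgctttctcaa
Clec4e (chr6:123289872-123290121, minus strand): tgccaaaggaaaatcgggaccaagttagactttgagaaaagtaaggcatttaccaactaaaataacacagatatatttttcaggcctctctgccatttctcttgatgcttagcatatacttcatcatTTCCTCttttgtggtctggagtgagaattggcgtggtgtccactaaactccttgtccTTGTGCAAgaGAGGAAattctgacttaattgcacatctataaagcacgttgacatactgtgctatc
Clec4b1 (chr6:123049712-123049961, plus strand): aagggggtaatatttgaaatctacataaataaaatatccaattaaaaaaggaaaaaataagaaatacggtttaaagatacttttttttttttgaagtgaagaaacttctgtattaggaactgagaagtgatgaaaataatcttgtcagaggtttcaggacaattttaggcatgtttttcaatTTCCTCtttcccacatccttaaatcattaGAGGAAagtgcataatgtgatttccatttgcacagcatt
The Clec4e window held GAGGAA matches starting 123 and 56 bases before the start, and a TTGCNNAA match 66 bases before it, with no overlap between them. The Clec4d window held 1 GAGGAA match, 240 bases before the start, and the Clec4b1 window held 2, at 68 and 39 bases. Of the 11 member windows, 9 held GAGGAA, where 23.3% of all 32851 promoter windows of this length did. The exceptions were the Clec4a2 window and 1 of the 2 Clec4a3 windows. The windows are not all separate, since the 2 of Clec7a overlap and share 1 match, and the 2 of Clec4a3 overlap. By gene, 8 of the 9 matched members held GAGGAA. TTGCNNAA was found for Clec4e and Clec12a (9.56% of all windows), and the AP-1 core TGANTCA for Clec12a (6.75%). A GAGGAA match was thus found both at members that were higher and at members that were lower in the knockout library.

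The libraries held 64153676 and 68554172 counted reads. Nrp2, the targeted gene, was read 9686 times in the control and 1017 times in the knockout, 9.71-fold lower (95% interval 6.95 to 13.9). Itgam, which encodes the CD11b used for the selection, was 1.43-fold higher in the knockout (1.28 to 1.61). It was at 294 and 421 CPM, the reads of a gene scaled to the size of its library. With 1 library per group no difference could be checked against replicates, and no test was run. Genes detected in a single library, by more than 4 reads, typically showed 47 reads if that was the control and 24 if it was the knockout (medians). Each captured fragment was therefore taken as worth that many reads. This assumes the same number for every fragment of a library, which was not tested. Some genes had fewer reads than that, such as Camp with 18 in the knockout. The 95% intervals are exact ones on the resulting fragment counts, under that assumption. They cover counting error only, and not differences between animals. In bulk RNA, fewer cells of a type and less RNA per cell cannot be told apart.

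Levels of the lectins were compared per kilobase of annotated exon. In the control library Clec7a was highest, at 687 CPM per kb (95% Poisson interval of the fragment count 660 to 714), and Clec4n was next at 549 CPM per kb (517 to 583). Together these receptors for fungal beta-glucans and mannans made up 36.8% and 29.5% of the summed per-kb level of the 10 genes. Clec4d at 151, Clec4a1 at 143 and Clec4a3 at 138 CPM per kb filled the third to the fifth place, with overlapping intervals. Clec12a, Clec4a2, Clec5a and Clec4e followed at 50.9, 45.9, 44.8 and 39.4 CPM per kb, where each neighbour in the order overlapped the next. Clec4b1, a receptor for mycobacterial glycolipids, was the lowest at 13.7 CPM per kb and rested on about 15 fragments. In the knockout library Clec7a remained first at 568 CPM per kb, but Clec4d took the second place at 301 CPM per kb (285 to 317) and Clec4n the third at 254 CPM per kb (238 to 269.7). Clec4e, in the ninth place before, was in the sixth, at 70.3 CPM per kb, and its interval (65.9 to 74.8) no longer overlapped that of its lower neighbour Clec4a2 (50.8 to 61.1). These orders depend on annotated exon lengths, which range from 784 bases for Clec4b1 to 5528 bases for Clec12a.

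**Figure D1:**
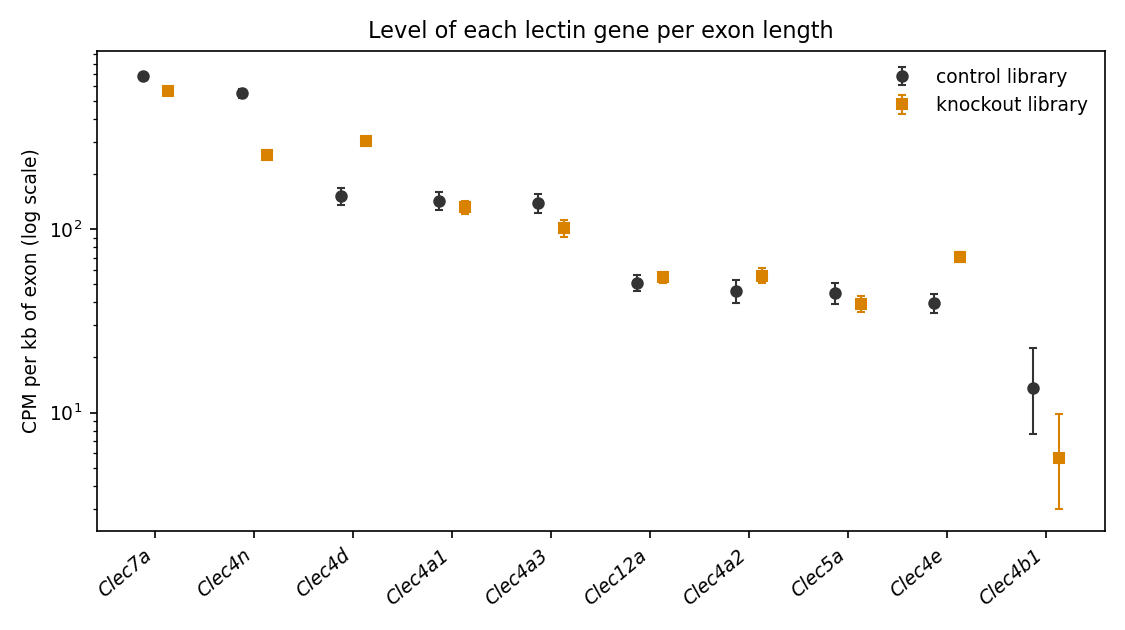
Level of each lectin gene in CPM per kb of exon (log scale), control library as circles and knockout library as squares, with 95% Poisson intervals on fragment counts, 1 library per group. Clec4n is in the second place in the control and the third in the knockout library, at 549 and 254 CPM per kb, while Clec4d is at 151 and 301.

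The comparison of the knockout with the control library asked how myeloid deletion of Nrp2 changes tumour CD11b+ cells. Among the activating receptors the neighbouring genes of the Clec4 cluster went opposite ways. Clec4d and Clec4e were near 2-fold higher in the knockout library, Clec4n was more than 2-fold lower, and Clec7a, Clec5a and the inhibitory receptors differed by less than 1.25-fold. By the rule of at least 2-fold, 0 of the 10 members were higher, where 10.8% of 14420 genes with at least 50 reads were, and 2 were lower, where 14.7% of these genes were. With genes at 0 in one library held at their bound these shares were 8.22% and 12.1%. Among the 2548 genes whose summed reads reached 10000, a limit set with the values in view that 9 members pass, 3.65% were higher and 2.0% lower by at least 2-fold. Of the 2 lower members, Clec4n passes that limit and Clec4b1, with 1002 reads, does not.

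Clec4d encodes MCL, which binds the mycobacterial glycolipid trehalose dimycolate and pairs with Mincle. The control gave 15898 reads and the knockout 32221, or 242 and 481 CPM, 1.99-fold higher (1.76 to 2.24). Clec4e encodes Mincle, which binds the same glycolipid and SAP130, a nuclear protein released by dying cells. It had 12856 and 23371 reads, or 196 and 349 CPM, 1.78-fold higher (1.56 to 2.045). Reads of Clec4d per read of Clec4e were 1.24 in the control and 1.38 in the knockout, and the interval of that change (0.930 to 1.34) includes 1, so the ratios of the pair could not be told apart at this depth.

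Clec4n encodes dectin-2, a receptor for fungal mannans that signals through FcR-gamma. The control gave 51228 reads and the knockout 24120, or 780 and 360 CPM, 2.17-fold lower (1.99 to 2.36). Reads of Clec4d per read of Clec4n went from 0.310 to 1.34, a 4.31-fold change (3.71 to 5.01). For Clec4e per Clec4n the change was 3.86-fold (3.28 to 4.54). Ratios of genes within a library do not depend on the scaling between libraries. They show an unequal change of these neighbours, and not which of them moved.

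Clec4b1 encodes DCAR, another partner of FcR-gamma. It had 704 and 298 reads, or 10.7 and 4.45 CPM, 2.41-fold lower, and its interval is wide (1.06 to 5.58) because it rests on about 12 fragments in the knockout library. Clec7a, the most abundant member, had 118972 and 100425 reads, or 1812 and 1499 CPM, 1.21-fold lower (1.15 to 1.27). Clec5a, which signals through DAP12 and is known as a dengue virus receptor, had 11284 and 10102 reads, 1.14-fold lower with an interval that includes 1 (0.969 to 1.34 as a fold lower). The 6 activating genes therefore covered log2 ratios from -1.27 to 0.99, with a median of -0.23, where the median of all 14420 genes was -0.01.

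The inhibitory receptors lay inside that range. Clec4a2, whose ITIM dampens dendritic cell and macrophage activation, had 8822 and 10932 reads, or 134 and 163 CPM, 1.21-fold higher (1.02 to 1.45). Clec12a, an ITIM receptor for uric acid crystals on granulocytes and monocytes, had 18474 and 20230 reads, or 281 and 302 CPM, a ratio of 1.07 (0.951 to 1.21). Their median log2 ratio was 0.19, and with Clec4a1 and Clec4a3 counted as inhibitory it was -0.01. Of these relatives Clec4a3 had 12064 and 8996 reads, 1.37-fold lower (1.16 to 1.61), and Clec4a1 had 14642 and 13735 reads, a ratio of 0.919 (0.7995 to 1.06). Clec4a1, Clec4a2 and Clec4a3 are close paralogues, and the sources used here do not say how reads that fit several genes were counted.

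Summed over each class, activating reads per inhibitory read were 7.73 in the control and 6.11 in the knockout, a change of 0.791 (0.712 to 0.88). Without Clec7a the change was 0.858 (0.766 to 0.962). Without Clec4n it was 0.913, with an interval that includes 1 (0.820 to 1.02). Clec4n lost the most reads of the activating genes, so leaving it out had to bring the change nearer to 1. The inhibitory class here holds only 2 genes, with 27296 and 31162 reads. With Clec4a1 and Clec4a3 among them it has 54002 and 53893 reads, which also brings the change nearer to 1, and no interval was computed for that case. The interval of the ratio lay above 1 for 3 members (Clec4d, Clec4e, Clec4a2), where it did for 12.6% of all 14420 genes and for 30.8% of those with at least 10000 reads. It lay below 1 for 4 members (Clec4n, Clec4b1, Clec7a, Clec4a3), where it did for 11.1% and 24.3% of these genes. Clec4b1, with 1002 reads, is not among the genes with at least 10000 reads. At the depth of the other members, intervals that exclude 1 were thus common among all genes. No member had an interval wholly past 2-fold, as 1.88% of the 14420 genes did.

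**Figure D2:**
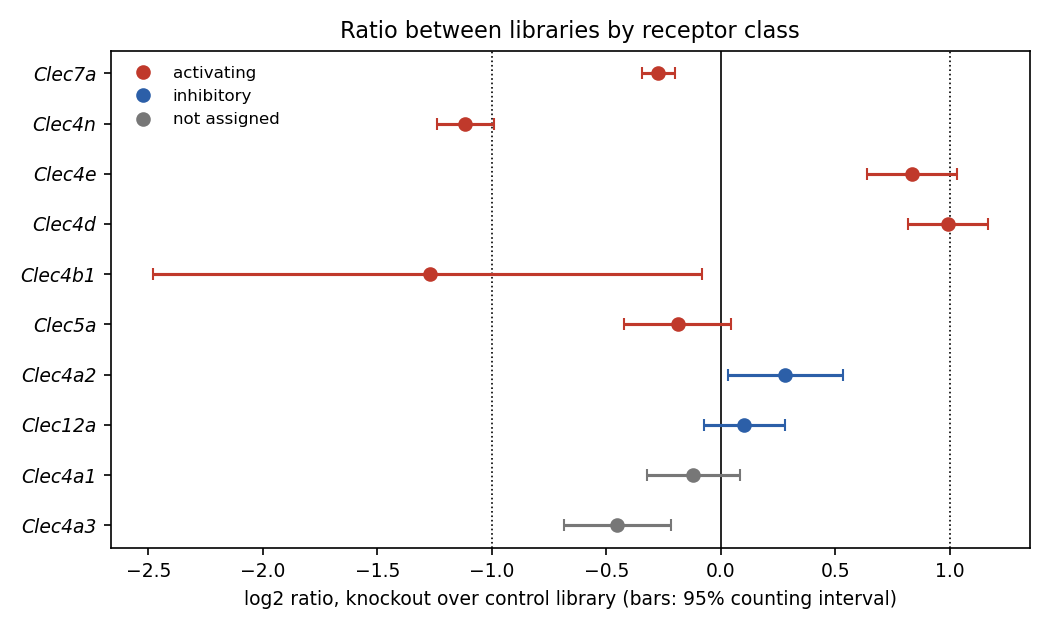
Log2 ratio of each lectin gene, knockout over control library, coloured by receptor class, with bars for the 95% counting interval and dotted lines at 2-fold. The activating genes spread from -1.27 (Clec4b1) to 0.99 (Clec4d), and the inhibitory genes Clec4a2 and Clec12a lie between them at 0.28 and 0.10.

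Gene order showed no common direction within a cluster. Along the Clec4 run, Clec4a1 and Clec4a3 had log2 ratios of -0.12 and -0.45, Clec4b1 -1.27, Clec4a2 0.28, Clec4n -1.12, Clec4d 0.99 and Clec4e 0.83. Clec4a4, which encodes DCIR2 of dendritic cells and lies between Clec4a3 and Clec4b1, had 190 and 26 reads, too few for an interval that excludes 1. Clec4b2 had 0 reads in both libraries. Necap1, the gene next to Clec4a1 outside the run, was at a ratio of 1.13 with an interval that includes 1 (0.795 to 1.62). Beyond it C3ar1, a complement C3a receptor, was 1.35-fold higher (1.21 to 1.52). Both values were taken after the gene order was seen. In the dectin cluster Clec1b, which encodes the podoplanin receptor CLEC-2, had 377 and 1116 reads and was 2.90-fold higher (1.36 to 7.105). Its neighbour Clec9a, a dead-cell receptor of cross-presenting dendritic cells, had 853 and 221 reads and was 3.93-fold lower (1.69 to 9.85). The annotated spans of Clec1b and Clec9a overlap by 474 bases on the same strand. Olr1, the oxidised lipid receptor LOX-1, was at a ratio of 1.21 (0.827 to 1.79) and Cd69, an early activation antigen, at 1.35 (0.970 to 1.91). Among related lectin genes outside the plotted stretch, Clec2d was 1.49-fold lower (1.21 to 1.84), Clec2g and Clec2i had intervals that include 1, and Clec2h had 0 reads. Within the stretch Clec1a had an interval that includes 1, and Clec12b had 0 reads. Of these 12 lectin genes that are not members, 9 had at least 50 reads, with a median log2 ratio of 0.00. Of the 9, 1 was at least 2-fold higher and 2 were lower by as much, where 10.8% and 14.7% of the 14420 genes were.

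**Figure D3:**
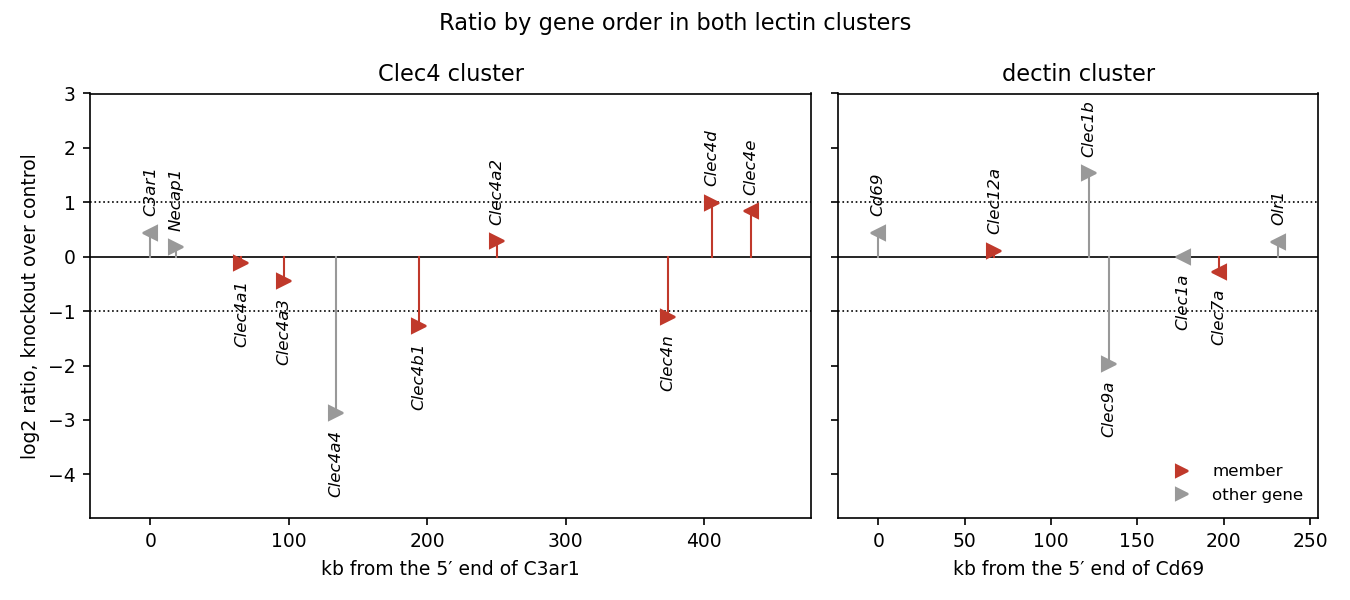
Log2 ratio, knockout over control library, of genes with at least 50 reads against their distance in kb along the Clec4 and dectin clusters, members in red and other genes in grey, with arrowheads for the strand and dotted lines at 2-fold. Clec4n lies at -1.12 beside Clec4d at 0.99 and Clec4e at 0.83.

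The partner chains of the activating lectins were abundant and nearly level. Fcer1g, which carries Clec4n, Clec4e, Clec4d and Clec4b1, was at 912 and 826 CPM, 1.10-fold lower (1.03 to 1.18), and Tyrobp, which carries Clec5a, at 1060 and 977 CPM, 1.08-fold lower (1.02 to 1.16). The ratios of Syk (1.06), Card9 (1.02), Bcl10 (1.03) and Malt1 (1.004), the core of the pathway, all had intervals that include 1. Of the Src-family kinases that phosphorylate the receptors, Fgr was 1.47-fold lower (1.28 to 1.68) and Lyn 1.24-fold (1.11 to 1.37), and the interval of Src included 1. Prkcd, the kinase between Syk and Card9, was 1.34-fold lower (1.23 to 1.47), Plcg2 1.36-fold (1.15 to 1.60), Vav2 1.49-fold (1.12 to 1.96) and Vav1 1.16-fold (1.01 to 1.33), while Vav3 and Hcst had intervals that include 1. Traf6, a ubiquitin ligase upstream of NF-kB, was 1.86-fold higher (1.47 to 2.38), and the kinase gene Map3k7 1.72-fold (1.29 to 2.34). In all, 0 of these 17 signalling genes were at least 2-fold higher or lower, where 10.8% and 14.7% of the 14420 genes were. The median log2 ratio of the signalling genes was -0.08. Of the phosphatases that ITIMs recruit, Ptpn6 was 1.70-fold lower (1.50 to 1.91), Inpp5d, which encodes SHIP-1, was 1.55-fold higher (1.37 to 1.76) and Ptpn11 was at a ratio of 0.988 (0.779 to 1.26).

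Of 17 genes that this pathway is known to induce, 4 were at least 2-fold lower and 0 higher by as much, with a median log2 ratio of -0.12. Over all 14420 genes with at least 50 reads, 14.7% were lower and 10.8% higher by as much. Of the 12 induced genes with at least 1000 reads, 2 were lower. The interval lay below 1 for 6 of the 17 and above 1 for 1, where it did for 11.1% and 12.6% of the 14420 genes. Il1b, the inflammatory cytokine IL-1 beta, was at 3675 and 1590 CPM, 2.31-fold lower (2.22 to 2.41). Il10, an anti-inflammatory cytokine, was at 62.9 and 16.2 CPM, 3.89-fold lower (2.69 to 5.70). Il12b had 565 and 110 reads, 5.22-fold lower (1.67 to 20.1), and Il23a had 350 and 146 reads with an interval that includes 1. Many of these genes also answer to Toll-like and cytokine receptors, so their count does not single out the lectin pathway. Among other receptors that use FcR-gamma or DAP12, 0 of 7 were at least 2-fold either way (median log2 ratio -0.12): the largest differences were Trem1 at 1.47-fold, Trem2 at 1.43-fold and Fcgr3 at 1.43-fold higher, and Cd300lb at 1.39-fold lower with an interval that includes 1. Among 8 other ITIM receptors, Cd300lf was 2.40-fold higher (2.16 to 2.67) and Siglece 2.80-fold lower (1.79 to 4.41), and Cd300a and Pilra were 1.94-fold and 1.74-fold lower (median of the 8 genes -0.13).

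**Figure D4:**
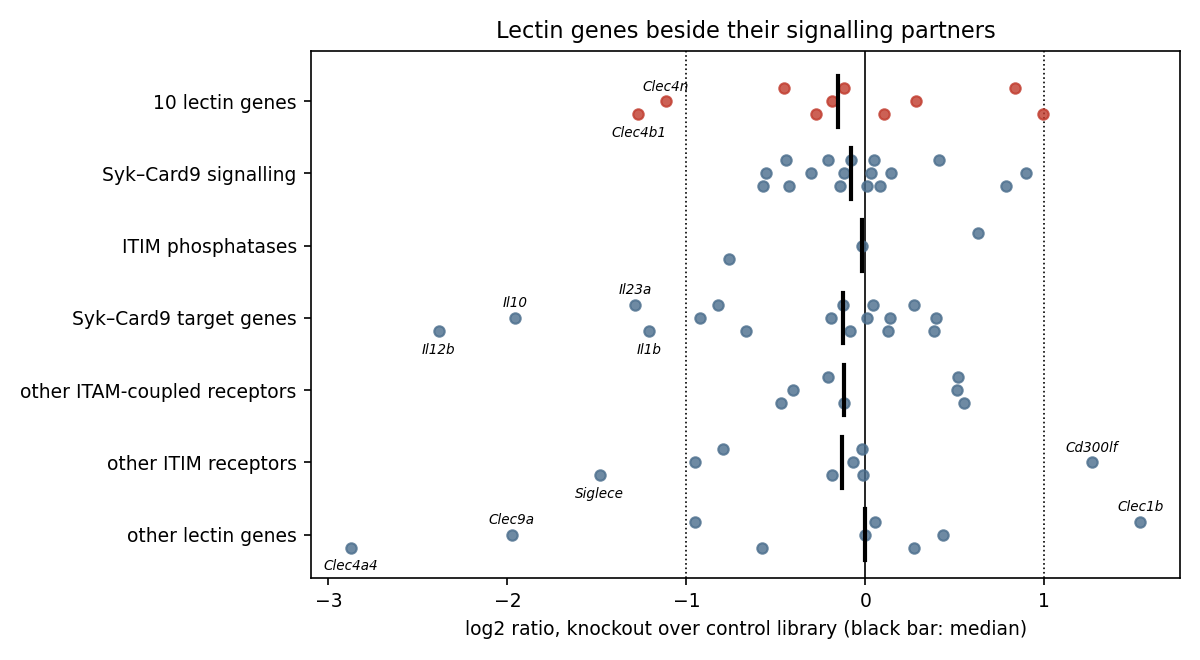
Log2 ratio, knockout over control library, of the 10 lectin genes (red) and of related genes with at least 50 reads (blue), 1 point per gene, with black bars for the median and dotted lines at 2-fold. All 17 signalling genes lie within 2-fold, and the named points lie beyond it.

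Markers of cell types also differed between the libraries, and their part in the lectin values was not tested. Beside the counts below, 10.8% of all 14420 genes with at least 50 reads were at least 2-fold higher and 14.7% lower. The macrophage markers summed to 26840 CPM in the control and 33956 CPM in the knockout, with most of the rise in Apoe (12399 and 18685 CPM). Of these 10 genes 1 was higher and 0 lower by at least 2-fold. The interval lay above 1 for 5 of them and below 1 for 4. Classical monocyte markers summed to 2266 and 7707 CPM. The rise lay wholly in Chil3, with 22208 and 406378 reads (338 and 6067 CPM), and without Chil3 the sum was lower in the knockout library. Of these 8 genes 3 were higher and 3 lower by at least 2-fold. Patrolling monocyte markers summed to 895 and 656 CPM, with 5 of 8 at least 2-fold lower and 0 higher. Nr4a1 made up most of both sums, at 571 and 590 CPM, and its interval includes 1. The fall of the sum thus lay wholly in the other genes of this list. Neutrophil markers summed to 1455 and 1490 CPM, where of 11 genes 4 were higher and 1 lower by at least 2-fold. Ly6g and Camp, at 0 in the control library, had only 96 and 18 reads in the knockout library, and their intervals include 1. Conventional dendritic cell markers summed to 544 and 189 CPM, with 8 of 10 at least 2-fold lower and 7 with an interval below 1. Among the 8, Xcr1, at 0 in the knockout library, had 111 reads in the control library, and its interval includes 1. Markers of eosinophils, T, NK, B, epithelial, fibroblast and endothelial cells summed to between 86.2 and 356 CPM in the control library. Their sums were 1.57-fold to 9.4-fold lower in the knockout library, and Epx was at 0 in both. Pax5 and Sox9, at 0 in the knockout library, had 56 and 112 reads in the control library, and their intervals include 1. Markers of mast cells and basophils summed to 27.8 and 29.9 CPM. Mcpt8 and Ms4a2, at 0 in the control library, had 81 and 27 reads in the knockout library, and their intervals include 1.

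The call of at least 2-fold turned on the scaling for 1 gene. Clec4d had a log2 ratio of 0.99, just under that line, and of 1.004, just past it, with relative log expression factors. In the authors' deposited table the log2 fold changes were 1.004 for Clec4d, 0.85 for Clec4e and -1.10 for Clec4n. The unadjusted p-values of that authors' deposited table were 0.0473, 0.0819 and 0.0329 for these genes, and no gene of the whole table had an adjusted p below 0.05. Since the table rests on the same pair of libraries, its p-values hold no replicate information.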

How the data were processed

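One control and one knockout library, each pooled from 3 animals, were analysed. The authors deposited whole-number counts of read 1 per Ensembl gene, made with cutadapt, HISAT2 and featureCounts on GRCm38, per the submitters' processing notes. The kit was a stranded mRNA kit, per the labels; options, strand setting and annotation release were not given in the sources used here. The authors deposited, too, log2 fold changes and p-values per gene, in columns named as DESeq2 names them.

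Symbols were matched for 49326 of 49585 identifiers, and gene positions and exon lengths come from GENCODE M21. Libraries were scaled with TMM factors (edgeR 4.0.16, R 4.3.3), 1.02 and 0.977. Log2 ratios used a prior of 0.5 counts per library, over 14420 genes with at least 50 reads. A ratio's interval is the exact conditional Clopper-Pearson interval, on reads divided by 47 (867 genes) and 24 (2114 genes), the medians of genes seen in one library only. Changes of ratios within a library carry exact conditional odds ratio intervals (scipy 1.17.1). The ratio code was tested on simulated data. The named genes are the members, Nrp2, Itgam, the signalling, phosphatase and cluster genes with at least 50 reads, and up to 4 genes per other list with the largest ratio and at least 200 reads. C3ar1, Necap1, Nr4a1, Chil3, Apoe and genes at 0 were named after their values were seen. Some signalling genes that the rule would take are not reported here and were left out of the counts. Members, lists and markers were chosen with earlier results of these data known, and the sequence motifs after the values were seen. Alternatives covered scaling, prior, depth limit, class assignment and interval.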

Additional observations from a re-analysis of the deposited data

How the results depend on the processing

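All 10 members kept the direction of their ratio under relative log expression, upper-quartile and total-count scaling and with a prior of 5 counts. The number of members at least 2-fold higher became 1 with relative log expression factors, through Clec4d, against 0 otherwise. On undivided reads 2 members, Clec4n and Clec4b1, had an interval wholly past 2-fold, against 0 on fragments. The median of the inhibitory genes turned from 0.19 to -0.01 with Clec4a1 and Clec4a3 among them. Over all genes, 1558 were at least 2-fold higher and 2124 lower; with no depth limit these became 4131 and 3272, and with at least 1000 reads 407 and 364. With at least 1000 reads, the other lectin genes at least 2-fold lower became 1 against 2 and the induced genes at least 2-fold lower became 2 against 4, because fewer genes were counted. No paired analysis was possible because each group has 1 library, and for the same reason no library could be left out. The depth limits Clec4b1 most, at about 15 and 12 fragments.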
